A study of Mus musculus with 12 samples.

Results

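The genes described here are 10 genes of nitrogen handling and of the periportal zone of the liver lobule: Cps1, Otc, Ass1, Asl, Arg1, Nags, Gls2, Hal, Sds and Cyp2f2. They were taken by name from the probe annotation of the arrays, and all 10 were among the 20572 genes that could be tested. RNA from 12 mouse livers was hybridised to Agilent arrays that read a single dye, with 1 array per mouse and 4 separate mice in each of 3 groups. The wild-type mice were 129/Sv x C57BL/6, the E2f1 group was E2f1-/-, and the third group was labelled E2f2-/-. All 12 mice, wild type included, were given diethylnitrosamine (DEN, a liver carcinogen) at 25 mg/kg on postnatal day 14 and, once weaned at 1 month, a diet with 60% of its calories as fat for 32 weeks. Age at death was 9 months, after 4 h without food. So no group shows these genes in an untreated liver. A source field of the E2f1 knockout samples speaks of vehicle and chow, against their titles, descriptions and characteristics, and the comparisons below follow the latter. The sources used here give neither the sex of the mice, nor the hour of killing, nor whether tumour or surrounding liver was sampled, nor which part of either gene was deleted.

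The urea cycle turns ammonia, which is toxic, into urea, and it runs almost wholly in hepatocytes. Its enzymes are most abundant near the portal vein, where blood rich in nutrients and ammonia enters the lobule, whereas glutamine synthetase sits in the last hepatocytes before the central vein and catches ammonia that has escaped. Glucagon, glucocorticoids and protein intake raise transcription of the cycle's genes, and liver tumours often carry less of their mRNA. E2f1 and E2f2 are transcription factors best known for binding promoters of cell cycle genes.

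Levels are log2 processed signals minus the 75th percentile of the same array, so a difference of 1 is a doubling relative to the rest of that array, and no level is set against that of another probe. That percentile lay between 119 and 238 intensity units, and 44.6% to 54.4% of probes were well above background on an array. The 10 genes had 14 tested probes, none saturated, and 13 of the 14 were above background on all 12 arrays. The targeted genes were looked at first. The E2f1 probe was lower in E2f1 knockout than in wild type (log2 difference -0.82 ± 0.19 SE, limma adjusted p = 0.0114). The E2f2 probe was not lower in the E2f2 group (-0.26 ± 0.21, adjusted p = 0.408), and it was lower in E2f1 knockout (-1.50 ± 0.21, adjusted p = 0.00141), so that group is called E2f2-labelled here. Each slide held 1 array of each group at a fixed position, so array position cannot be told apart from group, whereas slides can be compared within.

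Some of the measured sequences show what the arrays could read. The Asl probe and a probe for Otc are 60 bases long but span 586 and 23648 bases of mm9 (chr5:130487964-130488549, minus strand, and chrX:9853843-9877490), so each joins stretches that lie apart in the genome. They are shown because Asl had the largest rise among the cycle enzymes in E2f1 knockout and because Otc was read by this probe and by a separate one.
Asl probe: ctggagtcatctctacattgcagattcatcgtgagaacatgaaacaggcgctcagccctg
Otc probe: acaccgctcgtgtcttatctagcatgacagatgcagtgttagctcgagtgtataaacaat
Upstream sequence was matched in the RefSeq table for 5 of the 10 genes (Ass1, Cyp2f2, Hal, Nags and Otc). The 250 bases before the start site are given for 4 genes that rose in E2f1 knockout, read from GRCm38.p6 on the plus strand at chr2:31470020-31470269 (Ass1), chr7:27119705-27119954 (Cyp2f2), chr10:93488518-93488767 (Hal) and chrX:10252055-10252304 (Otc). Capitals mark the only searched motif found in these stretches, a TATA box (TATAAA, here on the minus strand) 28 to 23 bases before the start of Hal.
Ass1 upstream: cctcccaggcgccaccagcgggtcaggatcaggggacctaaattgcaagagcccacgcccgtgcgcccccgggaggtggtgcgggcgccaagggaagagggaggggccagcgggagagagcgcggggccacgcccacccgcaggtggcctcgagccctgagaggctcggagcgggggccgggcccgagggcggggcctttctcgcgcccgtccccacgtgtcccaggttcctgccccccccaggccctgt
Cyp2f2 upstream: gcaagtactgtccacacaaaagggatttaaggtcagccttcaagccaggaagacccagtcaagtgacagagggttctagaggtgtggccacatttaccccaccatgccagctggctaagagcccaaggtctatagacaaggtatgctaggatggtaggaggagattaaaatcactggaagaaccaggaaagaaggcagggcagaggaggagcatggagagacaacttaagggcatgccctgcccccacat
Hal upstream: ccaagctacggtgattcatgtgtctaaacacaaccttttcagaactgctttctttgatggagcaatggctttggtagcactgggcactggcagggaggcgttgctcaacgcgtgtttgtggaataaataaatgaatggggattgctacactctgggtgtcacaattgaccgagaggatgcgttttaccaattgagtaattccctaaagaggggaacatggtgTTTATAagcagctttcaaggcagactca
Otc upstream: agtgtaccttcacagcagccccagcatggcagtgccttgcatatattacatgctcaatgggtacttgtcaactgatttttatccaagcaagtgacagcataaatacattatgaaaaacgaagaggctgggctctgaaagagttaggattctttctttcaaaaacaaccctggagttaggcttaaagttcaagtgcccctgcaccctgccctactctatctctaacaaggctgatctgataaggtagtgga
The 4 sequences differed in composition, from 43.6% G and C in Otc to 75.6% in Ass1. Searches covered both strands of 300-base windows (250 bases before and 50 after the start) of 32851 promoters. An E2F site (TTTCGCGC, TTTGGCGC, TTTCCCGC or TTTGCCGC) was found in 2.26% of all windows and in 0 of the 5. The C/EBP palindrome (TTGCGCAA) occurred in 0.183% of windows, the full cAMP response element (TGACGTCA) in 1.79% and an HNF4 direct repeat (CAAAGTCCA) in 0.475%, each in 0 of the 5. The core of the cAMP response element (TGACG, which the full element contains) was in 20.8% of windows and in Nags alone of the 5, at bases 32 to 36 after the start on the minus strand. The TATA box was in 13.6% of windows and in Hal alone of the 5. These are matches of letters in a window and were not tied to any binding measurement.

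In E2f1 knockout livers 9 of the 10 genes were higher than in wild type at a limma adjusted p under 0.05 and none was lower, where 13.2% of all tested genes were higher and 7.41% lower by the same rule. The rises ran from 1.41-fold for Nags to 5.22-fold for Cyp2f2, and Arg1 was the gene that did not pass. The median difference over the 10 genes was 1.21 on the log2 scale, beside 0.13 over all tested genes. In 7 of the 10 every knockout liver lay above every wild-type liver, which held for 14.5% of all genes. In E2f2-labelled livers 6 of the 10 were higher than in wild type and none was lower (14.6% and 7.58% of all genes), with a median of 0.89 beside 0.18 over all genes. There the groups did not overlap in 8 of the 10, against 16.8% of all genes. The same 4 wild-type livers serve both comparisons, so the comparisons are not independent. With the slide as a block, 9 and 7 of the 10 genes passed as higher, beside 18% and 21.8% of all genes. In whole liver RNA, fewer cells of a type and less RNA per cell cannot be told apart.

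**Figure D1:**
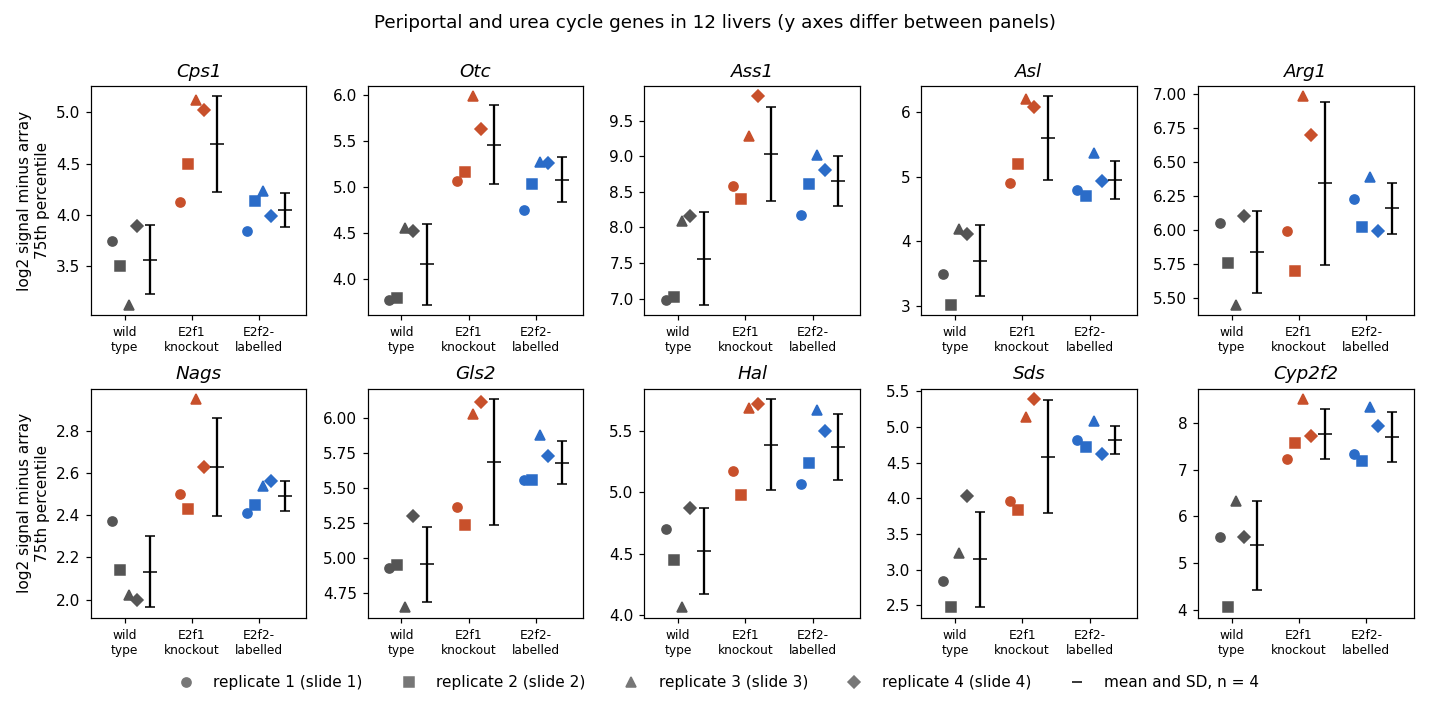
Level of each of the 10 genes in every liver (y axis, log2 signal minus the 75th percentile of its array; scales differ between panels), with replicate and slide given by the marker shape and the mean and SD (n = 4) drawn beside each group. In 7 panels all E2f1 knockout livers, and in 8 all E2f2-labelled livers, lie above all wild-type livers, whereas the groups overlap for Arg1.

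The cycle begins in the mitochondrion. Nags makes N-acetylglutamate, the activator without which carbamoyl phosphate synthetase does not work. Its probe (chr11:102009515-102009574, mm9) read 2.37, 2.14, 2.02 and 2.00 in wild-type replicates 1 to 4. In E2f1 knockout the values were 2.50, 2.43, 2.95 and 2.63, and in E2f2-labelled livers 2.41, 2.45, 2.54 and 2.56. The highest wild-type liver lay just below the lowest liver of either other group, so the gap was narrow. The rise in E2f1 knockout was 0.49 ± 0.15 SE (1.41-fold, adjusted p = 0.0335), and the difference of 0.36 ± 0.15 in E2f2-labelled livers did not pass (adjusted p = 0.102).

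Cps1, carbamoyl phosphate synthetase, fixes ammonia in the first committed step. Its probe at chr1:67276029-67276088 gave 3.74, 3.50, 3.12 and 3.89 in wild type and 4.12, 4.50, 5.12 and 5.02 in E2f1 knockout. The E2f2-labelled livers, at 3.84, 4.13, 4.23 and 3.99, had a mean of 4.05, between 3.57 in wild type and 4.69 in E2f1 knockout. They overlapped both groups: the lowest was under the highest wild-type liver and the highest was above the lowest E2f1 knockout liver. Cps1 rose 2.18-fold in E2f1 knockout (1.13 ± 0.24, adjusted p = 0.0075). Its difference of 0.48 ± 0.24 in E2f2-labelled livers did not pass (adjusted p = 0.163). On the slides, the E2f1 knockout array exceeded its wild-type neighbour by 0.38 to 2.00, and the E2f2-labelled array by 0.09 to 1.10.

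Otc, ornithine transcarbamylase, joins carbamoyl phosphate to ornithine and is encoded on the X chromosome. The brighter of its probes (chrX:9897267-9897326) read 3.77, 3.79, 4.56 and 4.52 in wild type, against 5.07, 5.17, 5.99 and 5.63 in E2f1 knockout and 4.75, 5.04, 5.28 and 5.27 in the E2f2-labelled livers. No wild-type liver reached any liver of the other groups. Otc rose 2.47-fold in E2f1 knockout (1.30 ± 0.26, adjusted p = 0.00565) and 1.90-fold in E2f2-labelled livers (0.93 ± 0.26, adjusted p = 0.0234). The junction-spanning probe printed above read 1.85, 1.85, 2.05 and 2.38 in wild type, against 3.16, 3.1, 4.04 and 3.31 in E2f1 knockout and 2.78, 2.47, 2.94 and 2.80 in the E2f2-labelled livers. It moved the same way, by 1.37 ± 0.22 and 0.71 ± 0.22 (adjusted p = 0.00233 and 0.0363 in a fit over probes).

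The later steps are cytosolic. Ass1, argininosuccinate synthase, brings in the nitrogen of aspartate. Its brightest probe (chr2:31376068-31376127) read 6.98, 7.02, 8.09 and 8.16 in wild type, against 8.58, 8.40, 9.29 and 9.84 in E2f1 knockout and 8.18, 8.61, 9.01 and 8.80 in E2f2-labelled livers. Wild-type livers fell into a lower and a higher pair, and the higher pair came close to the lowest liver of each other group without reaching it. The rise in E2f1 knockout was 2.76-fold (1.47 ± 0.36, adjusted p = 0.0159), and without wild-type replicate 2 it no longer passed (adjusted p = 0.0511). The difference in E2f2-labelled livers was 1.09 ± 0.36, with an adjusted p of 0.0507, and of 0.00468 with the slide as a block. A neighbouring Ass1 probe (chr2:31375998-31376057) gave 1.56 ± 0.43 and 1.13 ± 0.43 for the same comparisons (adjusted p = 0.0252 and 0.081).

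Asl, argininosuccinate lyase, releases arginine and fumarate. Wild-type livers read 3.49, 3.02, 4.19 and 4.12, E2f1 knockout livers 4.90, 5.19, 6.21 and 6.08, and E2f2-labelled livers 4.80, 4.70, 5.36 and 4.93. Every liver of both other groups stood above the highest wild-type liver. Asl rose 3.71-fold in E2f1 knockout (1.89 ± 0.33, adjusted p = 0.00358), and within slides by 1.41 to 2.17. In E2f2-labelled livers it rose 2.37-fold (1.24 ± 0.33, adjusted p = 0.0208).

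Arg1, arginase, splits arginine into urea and ornithine and closes the cycle. The probe at chr10:24636194-24636253 (minus strand) read 6.05, 5.76, 5.45 and 6.10 in wild type, against 5.99, 5.70, 6.98 and 6.70 in E2f1 knockout and 6.23, 6.02, 6.39 and 5.99 in the E2f2-labelled livers. E2f1 knockout replicates 1 and 2 lay within the wild-type range, and replicates 3 and 4 above it. The differences were 0.50 ± 0.27 (95% confidence interval -0.07 to 1.08, adjusted p = 0.209) and 0.32 ± 0.27 (-0.26 to 0.90, adjusted p = 0.408). These intervals include 0 and also rises of about the size seen for Nags, Gls2 and Hal. Within slides the E2f1 knockout array differed from wild type by -0.06, -0.06, 1.53 and 0.60. For E2f2-labelled livers the slide differences of Arg1 were 0.19, 0.26, 0.94 and -0.10, whereas each of the other 9 genes was above wild type on 4 of 4 slides in both comparisons. That order was found in 28.7% of all genes for E2f1 knockout and in 34.8% for the E2f2-labelled group.

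**Figure D2:**
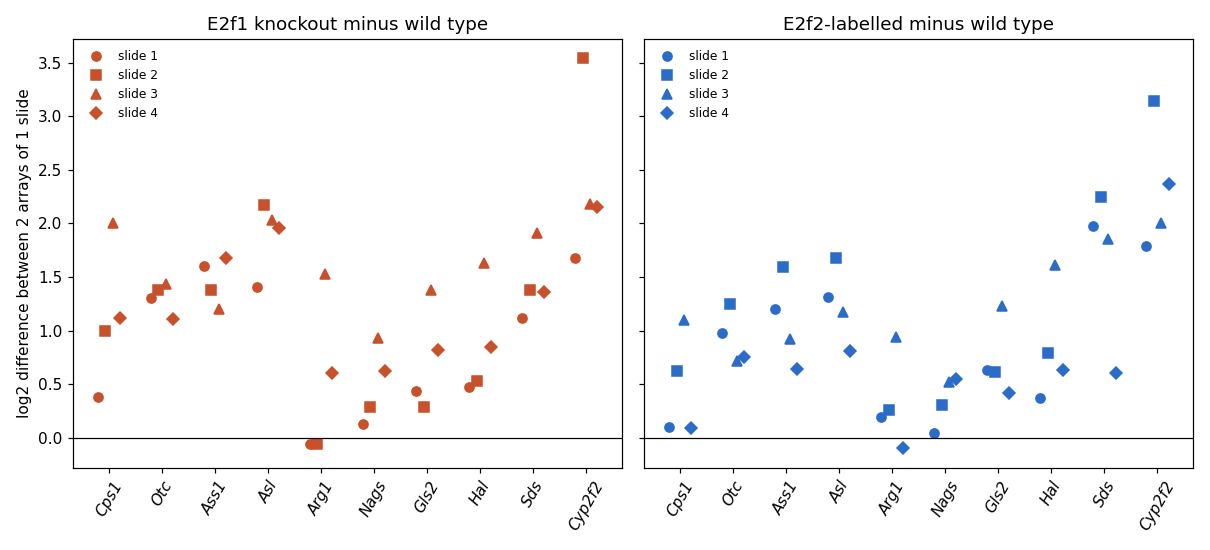
Difference between the knockout or E2f2-labelled array and the wild-type array of the same slide (y axis, log2) for each of the 10 genes, 1 marker per slide. Values lie above 0 on 4 of 4 slides for 9 genes in both panels, and Arg1 has 2 slides at -0.06 for E2f1 knockout and 1 at -0.10 for E2f2-labelled livers.

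Gls2, Hal and Sds break down amino acids and feed ammonia to the cycle. Gls2, the liver-type glutaminase, frees ammonia from glutamine beside Cps1 in the mitochondrion. Its probe (chr10:127646830-127646889) read 4.93, 4.95, 4.65 and 5.30 in wild type, against 5.37, 5.24, 6.03 and 6.12 in E2f1 knockout and 5.56, 5.56, 5.88 and 5.73 in the E2f2-labelled livers. Wild-type replicate 4 stood above E2f1 knockout replicate 2, and all E2f2-labelled livers stood above wild type. Gls2 rose 1.66-fold in E2f1 knockout (0.73 ± 0.22, adjusted p = 0.0342) and 1.65-fold in E2f2-labelled livers (0.72 ± 0.22, adjusted p = 0.0345). These calls, like that of Nags in E2f1 knockout, are close to the threshold: each was kept in 12 of 23 alternative settings.

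Hal, histidine ammonia lyase, starts the breakdown of histidine. It read 4.70, 4.45, 4.06 and 4.87 in wild type, against 5.17, 4.98, 5.69 and 5.72 in E2f1 knockout and 5.07, 5.24, 5.67 and 5.50 in the E2f2-labelled livers (chr10:92979135-92979194). No wild-type liver reached any liver of the other groups, and Hal rose 1.82-fold (0.87 ± 0.23, adjusted p = 0.0204) and 1.80-fold (0.85 ± 0.23, adjusted p = 0.0214). A dimmer Hal probe (chr10:92981534-92981593) gave 1.09 ± 0.30 and 0.96 ± 0.30 (adjusted p = 0.0235 and 0.0394).

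Sds, serine dehydratase, turns serine into pyruvate and ammonia and is induced by glucagon and protein feeding. Its brighter probe (chr5:120933105-120933164) read 2.84, 2.47, 3.23 and 4.03 in wild type and 3.96, 3.84, 5.14 and 5.39 in E2f1 knockout. In E2f2-labelled livers it read 4.82, 4.72, 5.08 and 4.62. Wild-type replicate 4 was above E2f1 knockout replicates 1 and 2, and the E2f2-labelled livers were close to each other and all above wild type. Sds rose 2.72-fold in E2f1 knockout (1.44 ± 0.39, adjusted p = 0.0214) and 3.18-fold in E2f2-labelled livers (1.67 ± 0.39, adjusted p = 0.0108). The other Sds probe (chr5:120928999-120929058), above background on 10 of 12 arrays, gave 1.76 ± 0.50 and 1.80 ± 0.50 (adjusted p = 0.0274 and 0.024).

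Cyp2f2, a cytochrome P450 used as a periportal marker in mouse liver, is no part of the cycle, and it had the largest rise of the 10 in both comparisons. The probe at chr7:27918570-27918629 read 5.56, 4.05, 6.34 and 5.57 in wild type, against 7.24, 7.58, 8.52 and 7.72 in E2f1 knockout and 7.35, 7.19, 8.34 and 7.94 in the E2f2-labelled livers. Wild-type replicate 2 was the lowest of the 12 livers, and the highest wild-type liver was still below each liver of the other groups. Cyp2f2 rose 5.22-fold in E2f1 knockout (2.38 ± 0.44, 95% confidence interval 1.42 to 3.35, adjusted p = 0.00449) and 5.01-fold in E2f2-labelled livers (2.32 ± 0.44, 1.36 to 3.29, adjusted p = 0.00478).

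**Figure D3:**
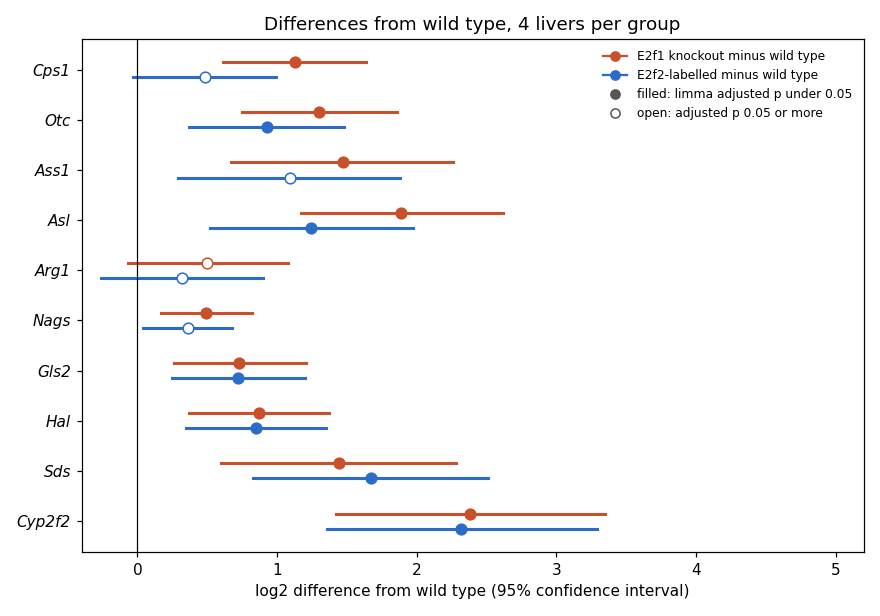
Difference from wild type (x axis, log2) with its 95% confidence interval for the 10 genes, in E2f1 knockout and E2f2-labelled livers (4 livers per group; filled points have a limma adjusted p under 0.05). All 20 differences are above 0; 9 pass in E2f1 knockout and 6 in the E2f2-labelled livers.

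The E2f1 knockout and E2f2-labelled livers were also compared with each other. Of the 10 genes, 0 passed at an adjusted p under 0.05 in limma, where 0.914% of all genes were higher and 0.724% lower in E2f2-labelled livers. At an unadjusted p under 0.05 Cps1 passed alone, and with the slide as a block 3 did (Cps1, Otc and Asl), beside 11.5% and 15.6% of all genes. Cps1 was lower in E2f2-labelled livers by a log2 difference of -0.65 (95% confidence interval -1.16 to -0.13, adjusted p = 0.279). Asl gave -0.65 (-1.38 to 0.08) and Otc -0.38 (-0.93 to 0.18). Gls2, Hal and Cyp2f2 differed by -0.01 (-0.48 to 0.47), -0.02 (-0.52 to 0.48) and -0.06 (-1.02 to 0.90). The interval of Cps1 lay wholly below 0, and those of the other 9 genes included 0, which does not show that the groups are alike. On 4 of 4 slides Cps1, Otc and Asl were lower on the E2f2-labelled array, an order found in 12.3% of all genes.

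Livers within a group differed in a way that the genes shared most in E2f1 knockout and least in wild type. In E2f1 knockout, replicates 3 and 4 stood above replicates 1 and 2 in all 10 genes, an order found in 25.4% of all tested genes. The mean level over the 10 genes was 5.29 and 5.30 in replicates 1 and 2 and 6.19 and 6.08 in replicates 3 and 4. In E2f2-labelled livers 7 of the 10 genes had this order and in wild type 5 (Otc, Ass1, Asl, Sds and Cyp2f2), where 25.3% and 25.2% of all genes did. Wild-type replicate 3 was the lowest wild-type liver in Cps1, Arg1, Gls2 and Hal, and the highest in Otc, Asl and Cyp2f2. Since the replicate number is the slide, slide and mouse cannot be told apart inside a group. Across the 12 livers the 45 pairs of genes had Pearson correlations of 0.544 to 0.974 (median 0.815), and of 0.0588 to 0.925 (median 0.601) after each group's mean was removed. These are descriptions, since the pairs share arrays, slides and scaling.

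The counts above rest on some livers more than others. Without wild-type replicate 2, 4 of the 10 genes passed in E2f1 knockout and 2 in the E2f2-labelled livers. Calls over all genes, in either direction, then fell from 4234 to 2538 and from 4565 to 2757. Without E2f1 knockout replicate 3 or 4, 5 passed in E2f1 knockout, beside 2633 and 2888 calls over all genes. In E2f2-labelled livers 2 passed without E2f2-labelled replicate 3, 3 without replicate 4 and 3 without wild-type replicate 1. Calls over all genes also fell then, to 3043, 3139 and 3438. In each of these settings the 10 genes lost a larger share of their calls than all genes did, which was not tested. Asl, Cps1, Otc and Cyp2f2 passed in E2f1 knockout, and Sds and Cyp2f2 in E2f2-labelled livers, under each of the 23 alternative settings.

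Steps that carry substrate to the cycle were described from a list of 23 genes, of which 21 were tested. Beside this and the following lists, 13.2% of all genes rose and 7.41% fell in E2f1 knockout. In E2f2-labelled livers these shares were 14.6% and 7.58%. In E2f1 knockout 13 rose and 1 fell (median 0.96), and in E2f2-labelled livers 9 rose and 1 fell (median 0.70). Slc25a13, the aspartate-glutamate carrier citrin, rose by 0.99 ± 0.16 and 0.82 ± 0.16 (adjusted p = 0.0028 and 0.00575), and Slc38a4, an amino acid transporter of the plasma membrane, by 1.62 ± 0.20 and 1.49 ± 0.20 (adjusted p = 0.000644 and 0.000647). Car5a, the mitochondrial carbonic anhydrase that supplies bicarbonate to Cps1, rose by 1.72 ± 0.35 and 2.06 ± 0.35 (adjusted p = 0.00679 and 0.00279). Slc25a15, the ornithine carrier, rose by 1.33 ± 0.26 and 1.26 ± 0.26 (adjusted p = 0.00525 and 0.00646) and was chosen after its values were seen. Slc7a2, a carrier of cationic amino acids such as arginine, was the gene of this list that differed between the other 2 groups: it read -0.37 ± 0.31 (SD, n = 4) in wild type, against 0.41 ± 0.38 in E2f1 knockout and 1.49 ± 0.16 in the E2f2-labelled livers, 1.08 ± 0.21 SE higher in the last than in E2f1 knockout (adjusted p = 0.0214).

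Amino acid breakdown around Hal and Sds was followed in 18 tested genes of 20. Of these, 11 rose in E2f1 knockout and 9 in the E2f2-labelled livers, and none fell at the threshold (medians 0.94 and 0.71). Aass, which starts lysine breakdown, rose by 1.81 ± 0.29 and 1.43 ± 0.29 (adjusted p = 0.00234 and 0.00592). Gnmt, which uses up surplus methyl groups on glycine, rose by 1.91 ± 0.33 and 1.03 ± 0.33 (adjusted p = 0.0033 and 0.0424), and Tat, tyrosine aminotransferase, by 1.51 ± 0.30 and 1.20 ± 0.30 (adjusted p = 0.00622 and 0.0161). Gcdh, of lysine and tryptophan breakdown, rose by 1.53 ± 0.31 and 0.94 ± 0.31 (adjusted p = 0.00634 and 0.0476).

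Periportal genes outside nitrogen handling were taken as a further list. Of 15 tested genes of 16, 4 rose and 1 fell in E2f1 knockout, and 3 rose and 2 fell in E2f2-labelled livers, with medians of 0.15 and 0.27 that turned negative under some scalings (lowest -0.10 and -0.07). Without wild-type replicate 3, 3 genes fell in E2f1 knockout and 4 in the E2f2-labelled livers. Pck1, the gluconeogenic enzyme, rose by 2.33 ± 0.24 and 2.16 ± 0.24 (adjusted p = 0.000186 and 0.000208), and Igf1 by 1.06 ± 0.25 and 1.25 ± 0.25 (adjusted p = 0.0129 and 0.00599). Apoc2, an activator of lipoprotein lipase, fell by -1.20 ± 0.33 and -1.60 ± 0.33 (adjusted p = 0.0236 and 0.00657). Aldh1b1, a mitochondrial aldehyde dehydrogenase, fell in E2f2-labelled livers (-1.90 ± 0.41, adjusted p = 0.00798) and gave -0.55 ± 0.41 in E2f1 knockout (adjusted p = 0.391).

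Among 16 regulators of urea cycle and related genes, all tested, 9 rose and 1 fell in E2f1 knockout and 8 rose and 0 fell in E2f2-labelled livers (medians 0.69 and 0.55). Hnf4a, a nuclear receptor that maintains hepatocyte identity, rose by 0.68 ± 0.14 and 0.79 ± 0.14 (adjusted p = 0.00788 and 0.00388). Klf15, which promotes amino acid catabolism in fasting, rose by 1.48 ± 0.21 and 1.13 ± 0.21 (adjusted p = 0.00128 and 0.00381). Creb3l3 (CREBH), a membrane-bound factor of the fasting liver, rose by 1.18 ± 0.18 and 1.01 ± 0.18 (adjusted p = 0.00203 and 0.00368), and Mlxipl (ChREBP), which responds to glucose, by 1.06 ± 0.21 and 1.16 ± 0.21 (adjusted p = 0.00555 and 0.00341).

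At the opposite end of the lobule, of 25 pericentral genes 9 rose in E2f1 knockout and 8 in the E2f2-labelled livers, and none fell at the threshold (medians 1.28 and 1.12). Cyp2e1, an ethanol-oxidising P450, rose by 2.10 ± 0.45 and 1.90 ± 0.45 (adjusted p = 0.00856 and 0.0126), Cyp27a1, of bile acid synthesis, by 1.91 ± 0.30 and 1.30 ± 0.30 (adjusted p = 0.00238 and 0.011), and Cyp2c29 by 1.56 ± 0.31 and 1.31 ± 0.31 (adjusted p = 0.00573 and 0.0117). Glul, the glutamine synthetase that takes up ammonia not made into urea, gave 1.21 ± 0.47 and 1.12 ± 0.47 and did not pass (adjusted p = 0.0878 and 0.106). Without wild-type replicate 3 Glul passed in both comparisons (1.75 and 1.66, adjusted p = 0.0018 and 0.0024), and 15 and 19 of the 25 genes were higher, with none lower. This liver had the highest mean of the list in wild type, so leaving it out must raise the list's mean difference. Calls over all genes, in either direction, also rose without it, from 4234 to 4896 and from 4565 to 5278. With single arrays left out in turn, the list medians ran from 0.86 to 1.81 and from 0.67 to 1.59. The mean level of the pericentral list was 1.35 to 3.45 in wild type, against 3.48 to 3.71 in E2f1 knockout and 3.16 to 3.54 in the E2f2-labelled livers, so wild-type livers varied most. Wild-type replicate 3, at 3.45, was the highest of the widely spread wild-type livers (the others 1.35 to 2.75) and lay within the range of the E2f2-labelled livers. Whether the change at one end of the lobule differed from that at the other was not tested.

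Other cell and tissue markers also differed between the groups, some of them in the opposite direction, and their part in the result was not tested. Of 15 tested liver tumour and oncofetal markers (18 on the list), 13 fell in E2f1 knockout and 13 in the E2f2-labelled livers, with 0 higher (medians -3.61 and -4.20). Over all genes 7.41% and 7.58% were lower. This list, like the others, was chosen with earlier results of these data known, so its counts are a description only. Their summed level, as a multiple of the array's 75th percentile, was 153 to 1000 in wild type, against 27.5 to 125 in E2f1 knockout and 33.8 to 445 in the E2f2-labelled livers, and Igf2 and Epcam were not well above background on any array of any group. A sum weighs bright genes most, and Lcn2 read 7.63 ± 1.32 (SD, n = 4) in wild type and 6.58 ± 2.52 in E2f2-labelled livers. The mean log2 level of these markers was 4.66, 4.61, 1.77 and 4.23 in wild-type replicates 1 to 4. It was -0.54 to 1.18 in E2f1 knockout and -0.37 to 0.67 in the E2f2-labelled livers. Wild-type replicate 3, with the lowest tumour markers of its group, had a mean over the 10 genes of 4.57, within the range of the other wild-type livers (4.11 to 4.86). That mean hides opposite orders. This liver was the lowest of wild type in Cps1, Arg1, Gls2 and Hal and the highest in Otc, Asl and Cyp2f2. Without it 7 of the 10 genes passed in E2f1 knockout and 6 in the E2f2-labelled livers.

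The labelled tissue was checked with 27 hepatocyte markers, all tested, of which 9 rose in each comparison and none fell (medians 0.21 and 0.39, negative under some scalings, lowest -0.08 and -0.01). Differences were above 0 in 21 of the 27 in E2f1 knockout and in 24 in E2f2-labelled livers. Asgr2 rose by 1.04 ± 0.16 and 0.82 ± 0.16 (adjusted p = 0.00218 and 0.00541). Tdo2 rose by 1.07 ± 0.18 in E2f1 knockout (adjusted p = 0.0028) and gave 0.52 ± 0.18 in E2f2-labelled livers (adjusted p = 0.0542). Alb, albumin, was named outside the rule for naming genes. It gave 0.09 ± 0.21 in E2f1 knockout (adjusted p = 0.807) and -0.35 ± 0.21 in the E2f2-labelled group (adjusted p = 0.238). The mean level of these markers was 8.46 to 8.91 in wild type, against 8.99 to 9.33 in E2f1 knockout and 8.94 to 9.25 in the E2f2-labelled livers, so both groups lay above all wild-type livers. Group means were 8.71, 9.19 and 9.13 in that order, beside 4.50, 5.72 and 5.49 for the mean over the 10 genes.

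**Figure D4:**
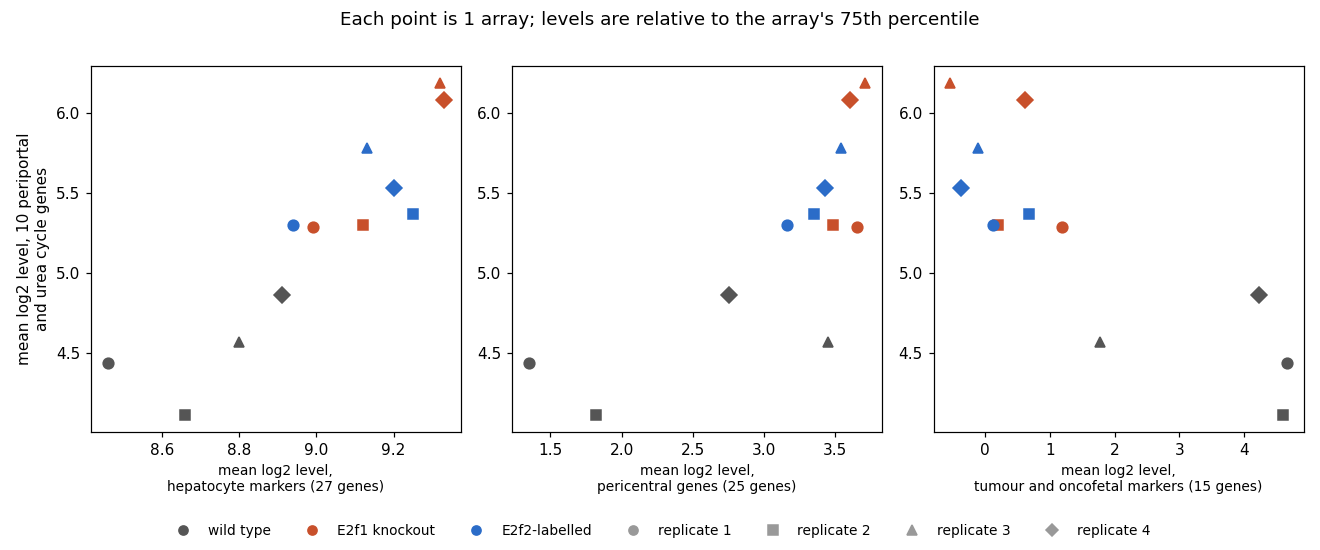
Mean level of the 10 periportal and urea cycle genes in each liver (y axis, log2 relative to the array's 75th percentile) against the mean level of 27 hepatocyte markers, 25 pericentral genes and 15 tumour and oncofetal markers (x axes, same unit, ranges differ). Wild-type replicate 3 has a tumour marker mean of 1.77, against 4.23 to 4.66 in the other wild-type livers, and its 10-gene mean of 4.57 lies among theirs. It is the lowest wild-type liver in 4 of the 10 genes and the highest in 3.

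By rank of Pearson correlation with the mean standardised level of the 10 genes, over 12 livers and 20467 genes with complete values, the genes most like them were Clpp (r = 0.979), Ilrun (0.973), Igfbp4 (0.971), Fbxo36 (0.969) and Ndufa11 (0.968). After removal of group means the values were 0.936, 0.902, 0.954, 0.892 and 0.883. These are the top of a very large number of ranked genes and a description of shared pattern across the same arrays.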

How the data were processed

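The 10 genes and the lists were chosen with earlier results of these data known. Agilent Feature Extraction 10.7.3.1 made the deposited signals, as the submitters' processing notes state. The processed signal is, per the file headers, a background-corrected intensity on a linear scale. Values in the authors' series matrix are log2 (lowest correlation with the scanner log2 signal 0.9981 on any array, median 3.84 on each), and the sources used here do not state their normalization, so they served as an alternative. For each liver 50 ng of RNA went into labelling, per the labels.

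Control and outlier spots were left out, spots of a probe were averaged, and each array's 75th percentile was subtracted from the log2 signal. Probes well above background on 3 of 4 arrays of any group were kept (28434 of 55681), and the brightest stood for its gene. Names came from RefSeq accessions, symbols or synonyms, or else the file. limma 3.58.1 in R 4.3.3 fitted all 12 arrays with 9 residual degrees of freedom, no covariates, and Benjamini-Hochberg adjustment over 20572 genes. The script was tested on simulated data. Values of 1 listed gene are not reported here. The number of arrays limits the precision.

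Replicate numbers mark slides: 10 of 12 same-slide pairs had deviations from group means correlating above 0.1 (r from 0.0413 to 0.424). The named-gene rule took the 10 genes, E2f1 and E2f2, Glul, Cyp2e1 and Pck1, up to 4 genes of smallest adjusted p per pathway list and 2 per cell type list, and the 5 genes most like the 10. Chromosome positions are mm9 from the files; exon and UTR annotation of that build was not used here. Alternatives were normexp (offset 50), quantile and median scaling, matrix values, other probe filters, outlier spots kept, the mean of probes, 2 groups only, trended and robust eBayes, the slide as a block and each array left out.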

Additional observations from a re-analysis of the deposited data

Results flagged for a closer look

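None of the 10 genes had a liver apart from its group. Among 177 groups of 4 livers examined (59 named genes), 9 held a liver whose gap to the nearest of the others exceeded Dixon's critical value, and chance alone gives about 1 in 20. In E2f1 knockout these were replicate 1 for Aass (6.13), Camp (2.55) and Ltf (0.44), replicate 2 for Lyve1 (-1.29), and replicate 3 for Gcdh (5.83) and Cyp2c29 (7.01). In E2f2-labelled livers replicate 2 stood apart for Asgr2 (7.73) and Spp1 (1.73), and in wild type replicate 2 for Ndufa11 (2.69).

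Both remaining results are differences between the E2f2-labelled and E2f1 knockout livers. Slc7a2 was higher in E2f2-labelled livers by 1.08 ± 0.21 SE (limma adjusted p = 0.0214). E2f2 itself was higher there by 1.24 ± 0.21 (adjusted p = 0.00954).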

How the results depend on the processing

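In 23 alternatives none of the 10 genes was called lower than wild type. The number called higher in E2f1 knockout ranged from 4 to 9 when single arrays were left out. In E2f2-labelled livers that range was 2 to 7, and quantile scaling, median centring and the matrix values each gave 3 of the 10. Over all genes, leaving out an array gave 2538 to 4896 calls in E2f1 knockout, 2757 to 5278 in E2f2-labelled livers and 235 to 372 between these groups. Without the filter on dim probes the first pair of counts was 2789 and 2989, and median centring gave 2929 in E2f2-labelled livers. Normexp gave 213 and the filter on all 12 arrays 205 between the groups. With the slide as a replicate block, 9 and 7 of the 10 genes passed, and all genes gave 5488, 6293 and 436 calls against 4234, 4565 and 337 without it; 11 of 12 arrays correlated best with their own number. Higher calls were 64.0% and 65.8% of all calls, against 50.4% and 49.5% with quantile scaling, 50.9% and 47.6% with median centring and 50.3% and 49.5% with matrix values. The median of all genes fell from 0.13 and 0.18 to 0.03 and 0.07 under quantile scaling, and that of the 10 genes to 0.97 and 0.63. The cause of these shifts was not tested.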

Other observations

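Markers of other cells in the same livers were counted by the same rule. Over all genes 13.2% were higher and 7.41% lower in E2f1 knockout, and 14.6% and 7.58% in E2f2-labelled livers. In lists this short, a count of 1 or 2 genes is near these shares. Of 19 tested macrophage and Kupffer cell markers, 5 fell and 2 rose in E2f1 knockout, and 8 fell and 2 rose in E2f2-labelled livers. Cx3cr1, the fractalkine receptor, fell by -2.67 ± 0.38 SE and -3.0 ± 0.38 (limma adjusted p = 0.00141 and 0.000476). The 2 that rose, named because they went the other way, were Clec4f and Cd163. Clec4f rose by 1.87 ± 0.40 and 1.40 ± 0.40 (adjusted p = 0.00832 and 0.0276). Cd163 rose by 3.28 ± 0.61 and 3.15 ± 0.61 (adjusted p = 0.0045 and 0.00508) and was not well above background on any wild-type array. Among 12 neutrophil markers 5 and 3 fell, with Camp, the antimicrobial peptide of neutrophil granules, at -3.20 ± 0.86 and -3.19 ± 0.86 (adjusted p = 0.0217 and 0.021). Of 11 T and NK cell markers 0 and 5 fell, and of 8 B and plasma cell markers 1 rose in E2f1 knockout and 0 changed in E2f2-labelled livers. Whether the groups differed in these counts was not tested.

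In the stroma, Lyve1, a receptor of sinusoidal endothelium, fell by -2.91 ± 0.27 and -2.79 ± 0.27 (adjusted p = 8.49e-05 and 6.96e-05), and 2 and 3 of 13 endothelial markers fell. Of 13 stellate cell and fibroblast markers 5 and 4 fell, with Col3a1, a fibrillar collagen, at -0.91 ± 0.25 and -1.50 ± 0.25 (adjusted p = 0.0222 and 0.00231). Of 8 cholangiocyte markers 1 rose and 1 fell in E2f1 knockout and 1 fell in E2f2-labelled livers. Of 8 erythroid markers 3 fell and 1 rose in each comparison. The shares over all genes given above stand beside these counts too. Among the tumour-list genes, Akr1c18 and Scd2 fell by -4.99 ± 0.66 and -3.83 ± 0.43 in E2f1 knockout (adjusted p = 0.00105 and 0.000383).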
